A study of Homo sapiens with 8 samples.

Results

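The clustered protocadherin genes lie side by side on human chromosome 5, and the window examined here, chr5:140100000-140950000 (hg19, 850.0 kb), holds the alpha, beta and gamma clusters. Every called peak overlapping that window was taken, whatever its strength, which gave 80 of the 224694 peaks in the 6 peak lists. The SMC1A lists contributed 21 of 56510 peaks in replicate 1 and 25 of 68228 in replicate 2. The NIPBL lists contributed 5 of 21422 and 5 of 15357, and the MED1 lists 7 of 18131 and 17 of 45046. The alpha part was set at 140.16 to 140.4 Mb, the beta part at 140.42 to 140.63 Mb and the gamma part at 140.7 to 140.9 Mb.

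The study mapped 3 proteins by chromatin immunoprecipitation and sequencing (ChIP-seq) in GM12878, an established lymphoblastoid line derived from B lymphocytes, with no treatment. NIPBL, SMC1A and MED1 each had 2 replicate libraries, and each was compared by the authors with a pool of both whole cell extract libraries, which are DNA that was not immunoprecipitated. The labels do not say whether the replicates were separate cultures, so differences between them may be technical. No group differed from another in genotype or treatment, so the comparisons below are between proteins, between parts of the window and between the window and the rest of the genome.

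Clustered protocadherins are cell-surface adhesion proteins best known from neurons, where each cell uses a small set of the genes by choosing among alternative promoters. Most of these promoters carry a short conserved element, and CTCF bound there and at distant enhancers is known to anchor chromatin loops together with cohesin. SMC1A is a core subunit of the cohesin ring, NIPBL is the factor that helps load cohesin on chromatin and drives loop extrusion, and MED1 belongs to Mediator, which passes signals from enhancer-bound factors to RNA polymerase II. A peak list cannot say which promoter is used.

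The clusters can be seen in sequence. RefSeq (GRCh38.p14) lists 53 protein-coding members, 15 alpha, 16 beta and 22 gamma, with SLC25A2 and TAF7 among them and DIAPH1 as the next protein-coding neighbour after the gamma genes. Promoter sequences were matched by symbol for 47 of the 53. PCDHA3, PCDHA13, PCDHB6, PCDHB11, PCDHGA12 and PCDHGC5 had no entry. The stretches that follow are shown because each holds a match to a short core, GNCGCT, that was common in promoters of the clusters. A match to this core alone does not show that a promoter carries the conserved element. Each stretch is 36 bases, 5′ to 3′ on the gene's strand, lies before the gene's start, and has the core in capitals. The examples cover the arrayed alpha, beta and gamma genes and, for comparison, PCDHAC1 and PCDHGC4, which are C-type members.
PCDHA1: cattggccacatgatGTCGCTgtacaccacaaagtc
PCDHA2: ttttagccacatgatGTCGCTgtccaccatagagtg
PCDHA8: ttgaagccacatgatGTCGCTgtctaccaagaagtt
PCDHAC1: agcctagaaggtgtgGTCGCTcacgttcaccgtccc
PCDHB2: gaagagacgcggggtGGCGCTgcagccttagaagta
PCDHB10: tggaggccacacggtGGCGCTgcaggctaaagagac
PCDHB15: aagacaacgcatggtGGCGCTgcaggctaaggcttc
PCDHGA2: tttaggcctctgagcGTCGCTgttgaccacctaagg
PCDHGA5: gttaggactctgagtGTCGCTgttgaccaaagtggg
PCDHGB4: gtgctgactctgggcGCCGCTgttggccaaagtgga
PCDHGC4: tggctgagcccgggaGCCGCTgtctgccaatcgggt

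The core was spelled GTCGCT in the alpha examples, GGCGCT in the beta examples, and GTCGCT or GCCGCT in the gamma examples. The 9-letter word shared by the most alpha promoters was GATGTCGCT, present before the start of 9 of 13 alpha genes and of 0.0598% of all 35116 RefSeq promoters. In the beta cluster it was GGTGGCGCT, in 12 of 14 genes against 0.253% of all promoters. In the gamma cluster it was GCGCCGCTG, in 10 of 20 genes against 0.458%. The core GNCGCT was chosen after these sequences had been seen. On the gene's strand before the start it was found in 11 of 13 alpha, 13 of 14 beta and 19 of 20 gamma promoters, and in 23.1% of all promoters. PCDHA9, PCDHAC2, PCDHB8 and PCDHGB7 lacked it, as did the promoters of TAF7 and DIAPH1.

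**Figure D1:**
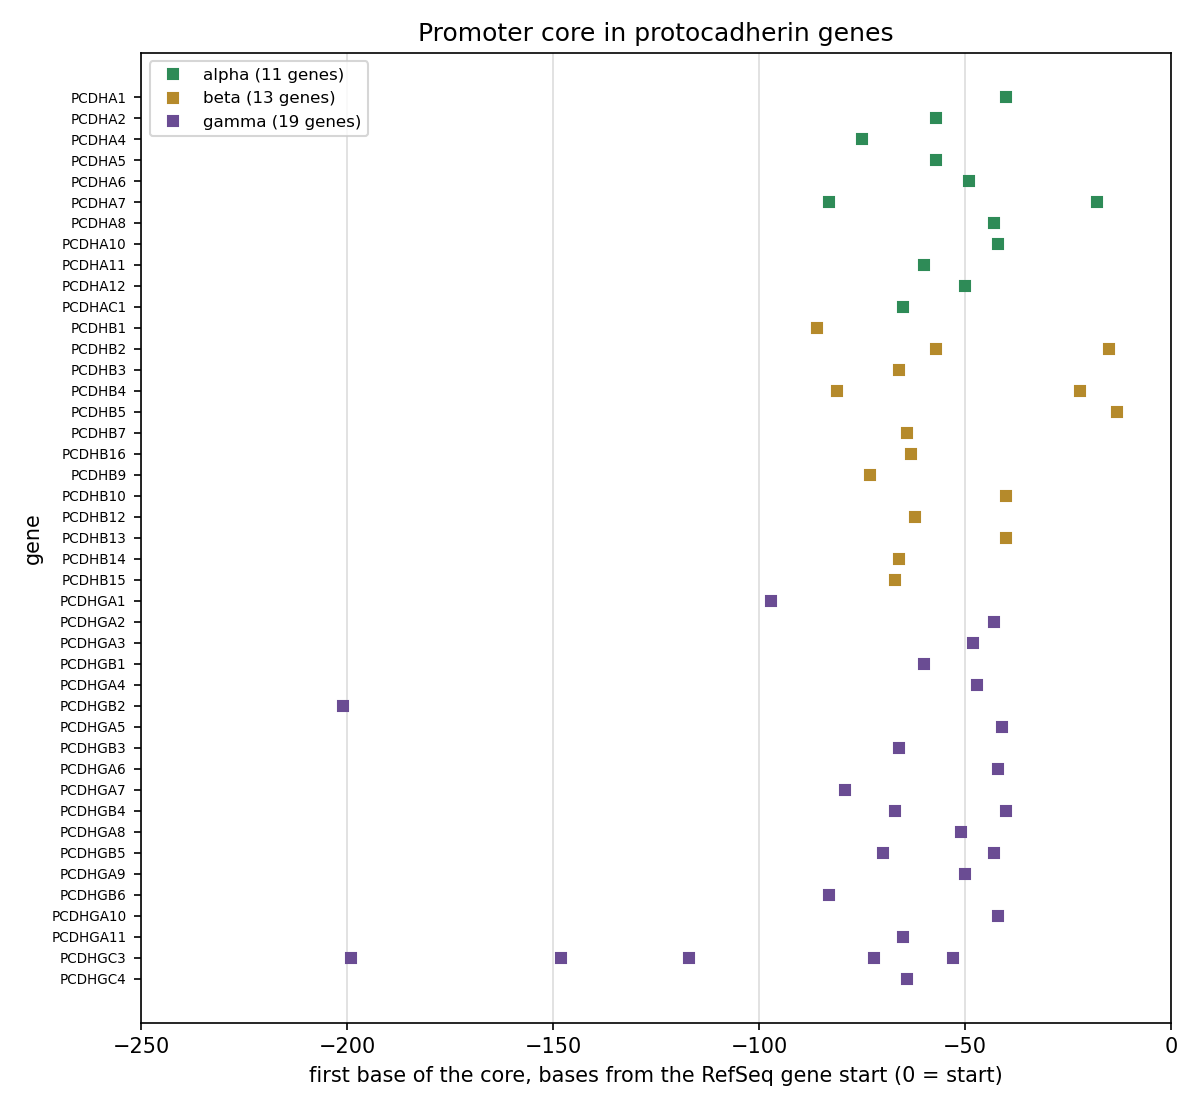
Position of the first base of the core GNCGCT relative to the RefSeq gene start (x axis, bases before the start) for each protocadherin promoter that holds it (y axis, in gene order; squares coloured by cluster). In 41 of the 43 genes with a core, a core begins 30 to 100 bases before the start; PCDHB5, with a core at 13 bases, and PCDHGB2, with one at 201 bases, are the exceptions.

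The median distance from the core to the gene start was 53.5 bases in alpha, 63.0 bases in beta and 64.0 bases in gamma promoters, counted over every core found. A second motif, AGNNGGCNC, part of the usual CTCF site, was searched on both strands of the whole promoter window of 250 bases before and 50 after the start. It was found in 1 of 13 alpha, 5 of 14 beta and 1 of 20 gamma genes and in 25.5% of all promoters. On both strands the core GNCGCT was found in 12 of 13, 14 of 14 and 19 of 20 genes and in 44.0% of all promoters. GNCGCT and AGNNGGCNC can share bases where both occur. These letters say nothing of which protein was bound. The promoter coordinates are in another build than the peaks, so no peak was assigned to a promoter.

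Across the 3 parts SMC1A was distributed very unevenly. Peaks that overlapped by at least 1 bp in both replicates were merged into regions, which gave 20 SMC1A regions in the window. The alpha part held 0 of them, the beta part 2 and the gamma part 12, and 5 more lay between the end of the gamma part and the end of the window. The remaining region, chr5:140099784-140100142, straddles the left end of the window, and its summit lies just outside. Density was 0 regions per Mb in alpha, 9.52 in beta and 60.0 in gamma. The number of SMC1A regions in other stretches as long as each part was not counted, so how unusual these densities are was not determined. The counts depend on the threshold: with −log10 q of at least 10, beta held 1 region and gamma 9, and with the 15357 top peaks of every list, beta held 0 and gamma 4.

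**Figure D2:**
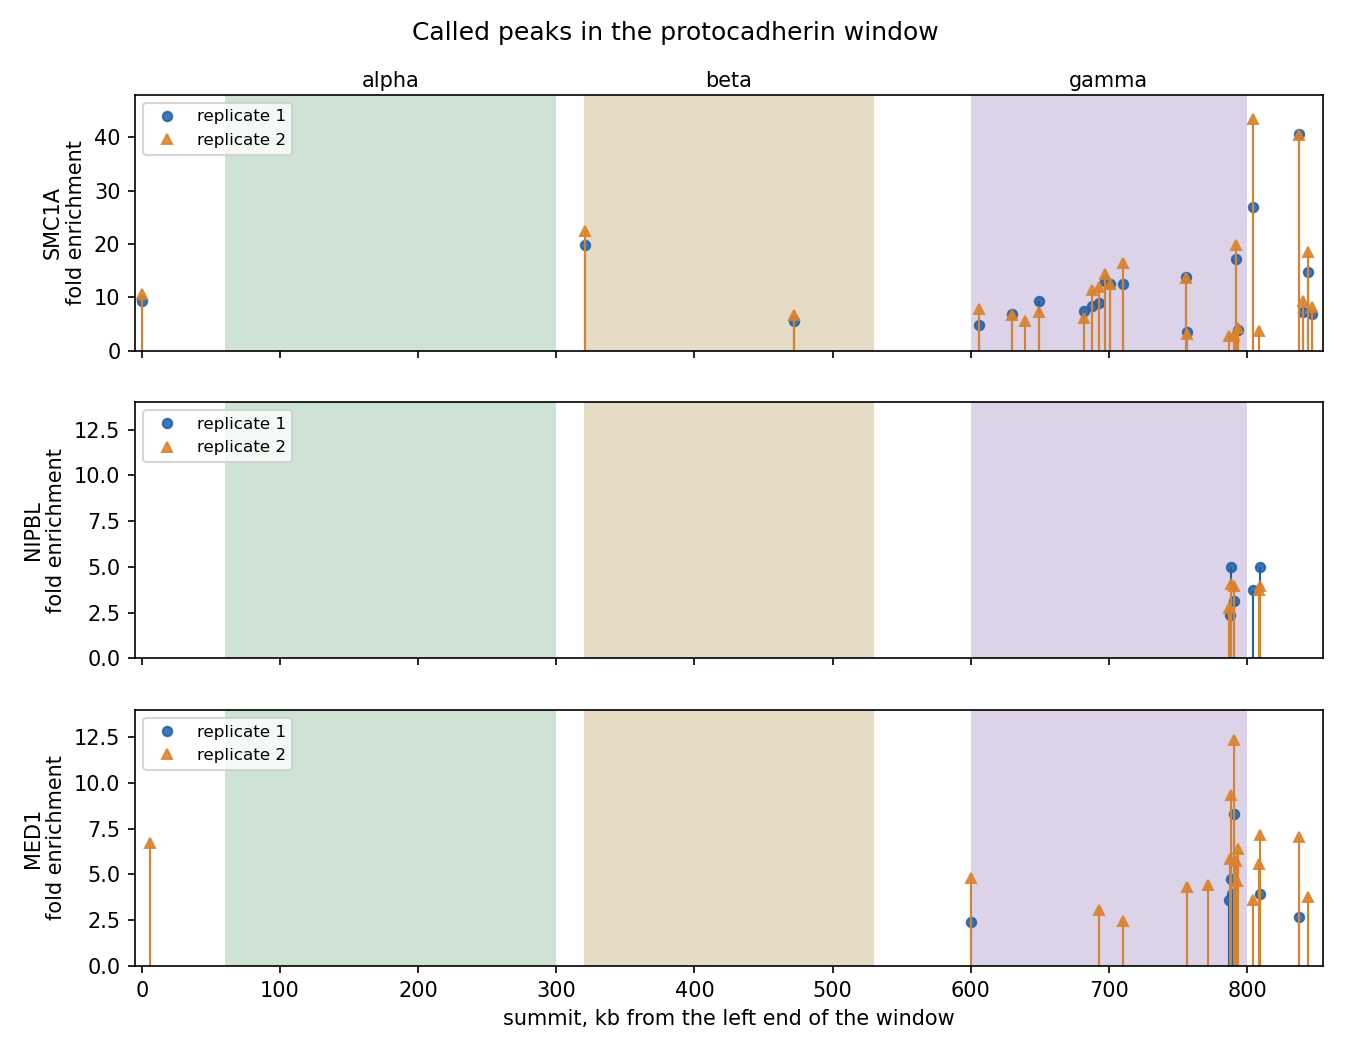
Fold enrichment of every called peak (y axis, starting at 0; the SMC1A axis is longer than the others) against the position of its summit in kb from the left end of the window (x axis), for SMC1A, NIPBL and MED1, with both replicates of each. The alpha part is empty in all 6 lists, the beta part holds only 2 SMC1A peaks in each replicate, and the gamma part and the 50 kb after it hold most peaks of all 3 proteins.

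The alpha part was empty of called peaks for all 3 proteins in both replicates. No list had a peak from chr5:140106050-140420743, a stretch of 314.694 kb. Among 12241 consecutive stretches as long as the alpha part (240.0 kb), 12.7% held no peak of any list. Centromeres and sequence gaps, where no peak can be called, were not taken out of these stretches. The 12.7% is therefore an upper bound for callable sequence, and how rare an empty stretch is there was not determined. No call is not absence of the protein. The lowest enrichment called anywhere in the genome was 1.41 and 1.65 in the NIPBL lists and 1.48 and 1.48 in the SMC1A lists. In the MED1 lists it was 1.54 and 1.44. These values are not the limit in alpha, since a call needs a higher fold where the control is low. The smallest pileups of a called peak were 10 and 10 fragments for NIPBL, 8 and 7 for SMC1A, and 11 and 8 for MED1. The control level in alpha was not read, so the limit there is unknown.

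In the beta part SMC1A had 2 regions and neither NIPBL nor MED1 had a peak in any list. Both proteins were sparse elsewhere too. Stretches of 850 kb had a median of 2 NIPBL and 2 MED1 regions found in both replicates, with lower quartiles of 0. How many stretches of the beta part's length lacked both proteins was not counted, so their absence here is a description. The first region, chr5:140420744-140421105, lies less than 1 kb inside the beta part's left bound. Its fold enrichment over the whole cell extract was 19.7 in replicate 1 and 22.4 in replicate 2, from pileups of 54 and 61 fragments at the summit. Fold is the pileup plus 1 over the control estimate plus 1. The control estimate here, 1.79 and 1.76 fragments, was the lowest of each list, so the high fold rests partly on that floor. By fold it ranked at percentile 83.4 and 86.4 of all peaks of each list, where 100 is the strongest. The second region, chr5:140571769-140572033, was weaker, at 5.55-fold and 6.65-fold (percentiles 32.4 and 45.8).

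The gamma part carried a run of 12 SMC1A regions with fold enrichments from 3.86 to 17.2 in replicate 1 and from 4.21 to 19.9 in replicate 2. The 3 regions with the highest mean percentile lay in the right-hand part of this run. The strongest, chr5:140891847-140892315, was enriched 17.2-fold and 19.9-fold (pileups 89 and 94). The region at chr5:140809835-140810362 was enriched 12.5-fold and 16.4-fold, and the widest region of the window, chr5:140855262-140856540 (1279 bp), was enriched 13.8-fold and 13.6-fold. That widest region merges 2 peaks of each replicate. Its values come from the stronger peaks, 606 and 737 bp wide, and the weaker peaks reached 3.57-fold and 3.06-fold. The weakest of all 20 regions also lay in gamma, 1394 bp from the strongest of the gamma part: chr5:140893270-140893714 reached 3.86-fold and 4.21-fold. The gamma regions therefore differed among themselves by more than the replicates did, since replicate 2 over replicate 1 ranged from 0.789 to 1.63 across the window.

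The 2 strongest SMC1A regions of the window lay after the gamma part, on the side where RefSeq places DIAPH1. The region chr5:140904069-140904878 was enriched 27.0-fold in replicate 1 and 43.4-fold in replicate 2, with pileups of 242 and 284 fragments. The region chr5:140937274-140937905 was enriched 40.5-fold and 40.4-fold, with pileups of 192 and 208. Which of them ranked first differed between the replicates. Both were near the top of each list, at percentiles 93.7 and 99.3 for the first and 99.3 and 98.8 for the second. The other 3 regions after gamma ranged from 6.97-fold to 14.8-fold in replicate 1 and from 8.22-fold to 18.4-fold in replicate 2. Just beyond the window, the next SMC1A region on this side, chr5:140971579-140972110, was enriched 20.6-fold and 25.9-fold, and on the other side chr5:140092136-140092394 was enriched 5.13-fold and 4.45-fold.

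**Figure D3:**
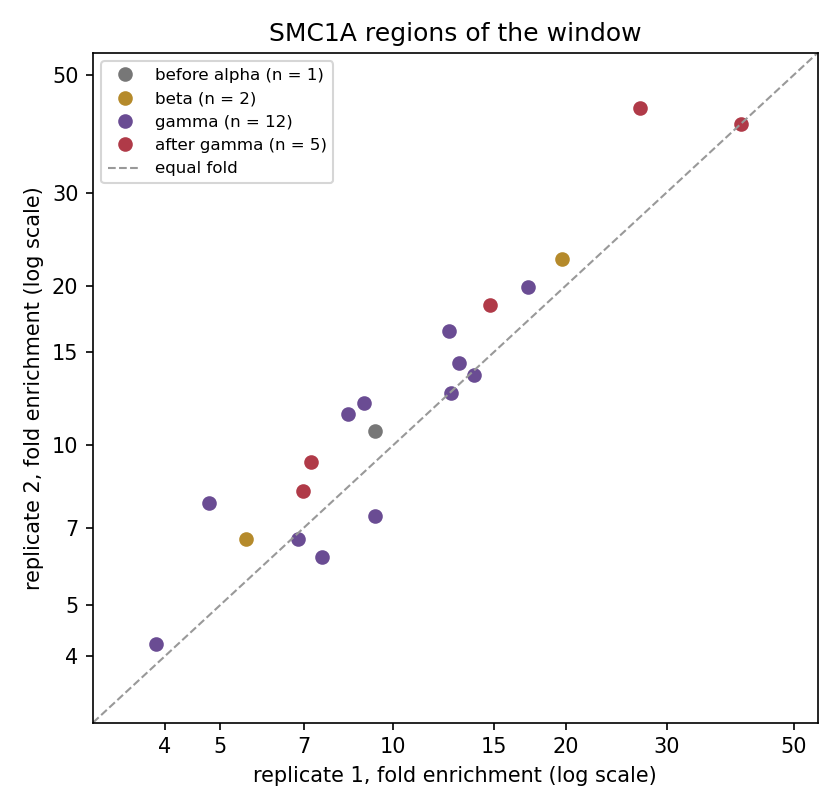
Fold enrichment of the 20 SMC1A regions in replicate 1 (x axis) and replicate 2 (y axis), both on log scales, coloured by where the region lies; the dashed line marks equal fold. Of the 20 regions 14 sit above the line, and the 2 regions after gamma at the upper right stand apart from the rest.

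Over all its regions, SMC1A in the window had ranks by fold enrichment close to those elsewhere. The median percentile of the 20 regions was 52.9 in replicate 1 and 64.1 in replicate 2, and 52.1 and 62.2 over the 18 regions without the 2 strongest, beside 54.8 and 62.6 for the 51020 SMC1A regions of chromosomes 1 to 22 and X. In the gamma part it was 52.2 and 64.1, and after gamma 71.2 and 79.5 over 5 regions. By fold, the strongest 20% of both lists included 3 of the 20 regions, 1 in beta and 2 after gamma, a share of 15.0% (exact Clopper-Pearson 95% interval 3.21% to 37.9%, counting error only) beside 21.0% of all SMC1A regions. The members of this 20% depended on the ranking. The control estimate was 1.79 and 1.76 fragments at this beta region and 8.47 and 7.89 at chr5:140855262-140856540 in gamma. By −log10 p these ranked at percentiles 68.9 and 73.9, and 82.8 and 80.3. After gamma, chr5:140943737-140944192 ranked at 86.6 and 92.0. The median of each region's mean percentile was 65.8 by −log10 p and 57.6 by fold. No genome-wide value was computed by −log10 p. Replicate 2 had the higher fold in 14 of 20 regions here and in 74.5% of all regions, and the summits of the replicates lay 2 to 59 bp apart, with a median of 11.5 bp.

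Spacing followed the same division. Neighbouring SMC1A summits in the window were a median of 10999 bp apart (19 distances), beside a median of 24489 bp over 50997 distances on the same chromosomes. The longest distance, 320.98 kb, ran from the region at the window's left end to the first beta region and contained the whole alpha part. Of all distances, 2.14% were at least as long. Such long distances together covered 24.3% of the length between neighbouring summits, a larger share than the count shows. That length includes centromeres and sequence gaps, with a longest distance of 23212877 bp, so the 24.3% is too high for callable sequence. Within the gamma part the median was 9497.5 bp over 11 distances, with a range from 1394 to 45408.5 bp.

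**Figure D4:**
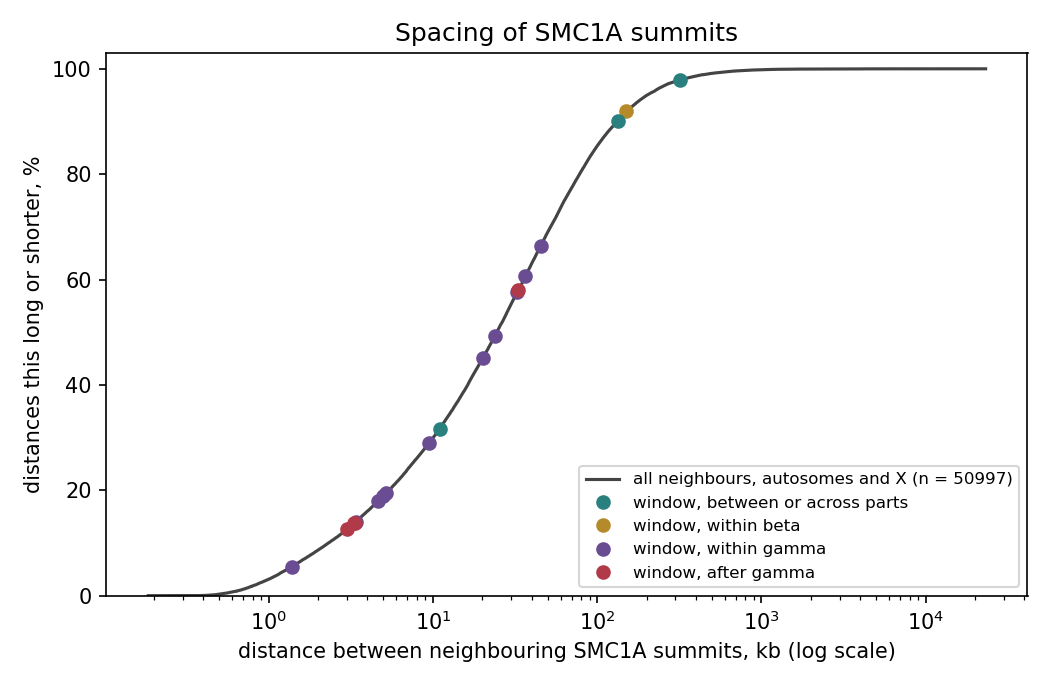
Share of distances between neighbouring SMC1A summits that are a given length or shorter (y axis, %) against distance in kb (x axis, log scale): the line shows all neighbours and the points the 19 distances of the window. The 3 longest window distances are those that cross alpha, lie within beta or lead from beta into gamma, and 11 points belong to gamma.

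The shortest run of 6 neighbouring regions in gamma spanned 27748.5 bp, from chr5:140782126-140782439 to chr5:140809835-140810362. The distances between them were 5177.5, 5006.0, 4662.5, 3405.0 and 9497.5 bp. Enrichment was lowest at the first of the run, at 7.54-fold and 6.15-fold, and lay between 8.35-fold and 16.4-fold at the other 5. Among all runs of 6 neighbouring regions in the genome 2.38% were as short or shorter. After gamma, the last 4 regions were close to evenly spaced, at 3011.0, 3341.5 and 3324.5 bp. These runs were picked out after the positions had been seen.

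Counted over the whole window SMC1A was denser than the median stretch but below the upper quartile: 20 regions amount to 23.5 per Mb, and 29.5% of 3320 stretches of the window's length held at least as many SMC1A regions (median 13, quartiles 7 and 21). For NIPBL, with 4 regions here, 33.0% held at least as many, and for MED1, with 6 regions, 29.1%. Stretches without a peak of any list were left out. Regions were placed in stretches by summit, whereas the 20 SMC1A regions include the one whose summit lies just outside the window. The contrast lay inside the window, between the alpha part and the gamma end.

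NIPBL was found only at the right-hand end of the window. Of its 4 regions found in both replicates, 3 lay in the last part of gamma and 1 after it. The region chr5:140888460-140888764 was enriched 5.00-fold in replicate 1 and 4.04-fold in replicate 2. The region chr5:140909481-140909774 was enriched 4.98-fold and 3.96-fold. Both were near the median of their list in replicate 2 (percentiles 48.4 and 46.5) and above it in replicate 1 (79.3 and 78.9). The regions chr5:140890684-140891136 (3.16-fold and 3.95-fold) and chr5:140887078-140887541 (2.35-fold and 2.78-fold) were weaker, the latter among the weakest NIPBL peaks of the genome, at percentiles 1.02 and 4.36.

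Each replicate had 1 further NIPBL peak that the other lacked. Genome-wide, the lists of 21422 and 15357 NIPBL peaks gave 11635 regions found in both replicates. The genome-wide share of NIPBL peaks without a partner was not computed. In replicate 1 it was chr5:140904263-140904471, at 3.76-fold, inside the SMC1A region of up to 43.4-fold described above. In replicate 2 it was chr5:140908789-140908998, at 3.74-fold. The latter overlaps an SMC1A peak, chr5:140908747-140909001 (3.76-fold), and a MED1 peak, chr5:140908618-140908977 (5.58-fold), each of which was also called in replicate 2 alone.

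MED1 was called at each of the 4 NIPBL regions and at 2 further sites. The region chr5:140890409-140891148 had the highest MED1 enrichment in the window, 8.28-fold in replicate 1 and 12.3-fold in replicate 2, and ranked at percentiles 95.8 and 95.0. Next to it, chr5:140888245-140889165 was enriched 4.74-fold and 9.33-fold, and chr5:140887064-140887679 3.58-fold and 5.85-fold. These 3 neighbours lie within the same few kb as 3 of the NIPBL regions. In replicate 1 the region chr5:140888245-140889165 was called as 2 peaks, chr5:140888410-140888723 and chr5:140888825-140889127.

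After gamma, the MED1 region chr5:140909469-140909765 was enriched 3.91-fold and 7.13-fold. The MED1 region chr5:140937419-140937707 was enriched 2.67-fold and 7.05-fold and lay in one of the 2 strongest SMC1A regions, 28.0 bp from its summit. This MED1 region ranked at percentiles 6.43 and 78.0 by fold. In replicate 1 it was among the weakest MED1 peaks of the genome by −log10 p, at percentile 0.372. The last MED1 region, chr5:140699810-140700579, straddles the left bound of the gamma part and was enriched 2.41-fold and 4.83-fold. Replicate 2 had the higher fold in all 6 MED1 regions and in 98.5% of MED1 regions genome-wide, from a list 45046 peaks long against 18131 in replicate 1.

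Of the 17 MED1 peaks of replicate 2, 11 overlapped no peak of replicate 1, beside 66.5% of all MED1 replicate 2 peaks. Their enrichment ranged from 2.46-fold to 6.70-fold. The peak chr5:140105570-140106049, at 6.70-fold, was the only one of them left of the gamma part. Of the others 7 lay in gamma, at chr5:140792613-140792844 (3.05-fold), chr5:140809966-140810268 (2.46-fold), chr5:140856180-140856437 (4.31-fold), chr5:140871717-140871987 (4.44-fold), chr5:140891923-140892305 (5.73-fold), chr5:140892598-140892985 (4.66-fold) and chr5:140893148-140894016 (6.37-fold). The last 3 lay after gamma, at chr5:140904336-140904656 (3.61-fold), chr5:140908618-140908977 (5.58-fold) and chr5:140943786-140944036 (3.74-fold).

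**Figure D5:**
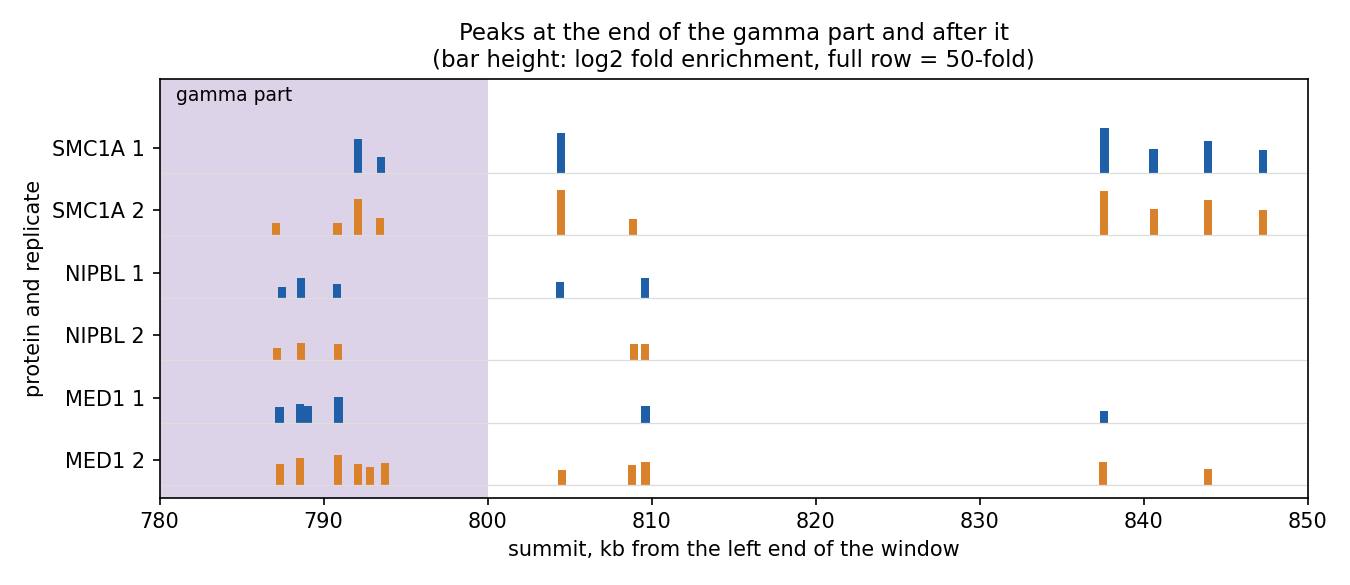
Summits at the end of the gamma part (shaded) and after it, in kb from the left end of the window (x axis), for each protein and replicate (rows; bar height is the log2 of fold enrichment, a full row being 50-fold). In both replicates, NIPBL and MED1 bars stand together at 3 positions in gamma and at 1 after it, where SMC1A has no bar in replicate 1. Single replicates add a NIPBL and a MED1 bar at the tall SMC1A bar near 804 kb and bars of all 3 proteins near 809 kb. MED1 replicate 2 adds bars at SMC1A bars near 792, 793 and 844 kb. SMC1A replicate 2 adds bars near 787 and 791 kb, at positions of NIPBL and MED1. MED1 stands at the SMC1A bar near 838 kb in both replicates.

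The sites shared by NIPBL and MED1 did not coincide with SMC1A regions found in both replicates. The NIPBL summits lay 1222.0 to 5118.5 bp from the nearest such SMC1A summit. All 4 NIPBL regions overlapped a MED1 region found in both replicates, and 70.2% of all NIPBL regions did. In turn 4 of the 6 MED1 regions overlapped a NIPBL region, beside 49.3% of all MED1 regions. Of the 4 NIPBL regions 0 overlapped an SMC1A region found in both replicates, where 62.4% of all NIPBL regions did. These are 4 regions, 3 of them side by side, so the shares are given as a description. With a peak of either SMC1A list counted, 2 of 4 overlapped, beside 82.1%. Both of those SMC1A peaks were in replicate 2 alone, at chr5:140886943-140887206 (2.85-fold) and chr5:140890754-140891129 (2.74-fold). Replicate 2 of SMC1A had 2 further peaks of its own, chr5:140739413-140739654 and chr5:140908747-140909001. Genome-wide, the lists of 56510 and 68228 SMC1A peaks gave 51020 regions found in both replicates. The genome-wide share of SMC1A peaks without a partner was not computed. Of the 6 MED1 regions 1 overlapped an SMC1A region, beside 52.2% of all MED1 regions, and 3 overlapped a peak of either SMC1A list, beside 73.3%.

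Seen from SMC1A, 0 of the 20 regions overlapped a NIPBL region found in both replicates (exact 95% interval 0 to 16.8%, counting error only), beside 14.3% of all SMC1A regions. A NIPBL peak of either list was present at 1 of 20, the strong region after gamma, beside 22% of all SMC1A regions. For MED1, 1 of 20 overlapped a region found in both replicates, the other strong region after gamma, beside 17.5%. The 20 regions are neighbours within the same libraries and not replicates, so these shares are a description. Counting a MED1 peak of either list gave 8 of 20 (40.0%, interval 19.1% to 63.9%) beside 30.2%. All 8 came from MED1 replicate 2, with 1 of them also in replicate 1, so the count rests on that library.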

How the data were processed

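The members and the lists described here were chosen with earlier results of these data known. Per the submitters' processing notes, reads were handled with Trimmomatic 0.33, BWA 0.7.12 and MACS2 2.1.0 on hg19, and the labels state a pool of both whole cell extracts as control; peaks were called per library by the authors. The deposited peak lists give fold enrichment at the summit, −log10 p and −log10 q, and an integer score that was not used. Duplicate rows and chromosomes other than 1 to 22 and X were left out. Overlapping peaks (1 bp) of both replicates were merged into regions, with the strongest peak of each list giving its value and the mean of their summits its position. Pileups were solved from fold and −log10 p, and the solution was tested on simulated data. Lists rank by fold (percentile). Total read counts were not used here; the lowest control estimate per list, which scales with depth and fragment length, was 1.76 to 2.37 fragments, 0.743 to 1.00 of the highest. Intervals are exact binomial and cover counting error only.

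Regions named were the 3 highest by mean percentile in each part, those outside the parts in the strongest 20% of both lists, every NIPBL or MED1 peak, and the weakest SMC1A region; the other regions and runs were named after their values were seen. No test was made, since regions of a library are not replicates. The cell type was not checked against markers and no peak was assigned to a gene, since no hg19 annotation was used. Python 3.11.15, pandas 2.3.3, numpy 2.4.6 and scipy 1.17.1 were used.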

Additional observations from a re-analysis of the deposited data

How the results depend on the processing

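No paired analysis was possible because no result comes from a test. Alternatives were regions in either replicate, −log10 q of at least 5 or 10, an overlap of 50%, 15357 top peaks per library, summits within 200 bp, and each library left out; of 61 values, 39 stayed within the replicate spread, the interval or 1.5 times the count. With equal lists, SMC1A had 7 regions, a median spacing of 23012 bp and 8.24 regions per Mb, NIPBL 2 regions, MED1 0% of SMC1A regions, and the distance across alpha became 782.4 kb. With −log10 q of at least 5, NIPBL had 1 region, MED1 overlapped 0% of SMC1A regions and the median SMC1A percentile, here of each region's mean over both lists (57.6), was 51.6. At 10, NIPBL had 0 regions, MED1 2 and 0% of SMC1A regions, SMC1A 18.8 per Mb and percentile 50.0. With either replicate, MED1 had 17 regions, 45.8% of SMC1A regions had MED1, and SMC1A had 28.2 per Mb. NIPBL was then at 4 of 24 SMC1A regions (16.7%). The NIPBL share was 8.0% without SMC1A replicate 1 and 5.0% without NIPBL replicate 2. It was 0% without SMC1A replicate 2, without NIPBL replicate 1 and at the other settings. These values counted as unchanged because they fell inside the interval of 0 of 20 (0 to 16.8%), which covers counting error only. Ranking by −log10 p gave percentile 65.8. With each library left out, MED1 regions ranged from 7 to 17, spacing from 7334 to 10238.5 bp, density from 24.7 to 29.4 per Mb, the MED1 share from 4.76% to 40.0% and the percentile, then over all window peaks of the remaining list, from 52.9 to 56.8. Since no list has a peak in alpha, these settings left it empty for all 3 proteins; the depth of the lists limits what this shows, as weaker enrichment was not called.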
